A study of Mus musculus with 16 samples.

Results

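ATP-binding cassette (ABC) genes outside the Abcb1 locus were described across 16 RNA-seq libraries from mouse lines of T-cell acute lymphoblastic leukaemia (T-ALL). The members are the protein-coding genes of the deposited table whose symbol is Abc followed by a letter from a to g and a digit, without Abcb1a, Abcb1b and Abcb4. There are 24 of them among 13474 genes, spread over 14 chromosomes. The choice used names only and no measured value. The 11 resistant libraries came from derivatives selected with 1 of 5 drugs. They comprised 3 cytarabine-resistant derivatives (lines 2869, 2883 and 7298), 3 vincristine-resistant (2696, 2869 and 2883), 2 etoposide-resistant (2696 and 2883), 2 prednisone-resistant (2641 and 2883) and 1 methotrexate-resistant (2883). The 5 parental libraries, labelled PBS, came from the same 5 lines. Lines 2883, 2696, 2641 and 2869 carry the genotype Mcm2cre/cre, an allele that lowers the replication helicase subunit Mcm2, in the parental and the resistant state alike. The genotype label of line 7298 reads SCL/LMO1 transgenic and does not mention Mcm2, while the growth protocol calls the cells of all samples Mcm2hypo, so its Mcm2 status is unsettled. All lines are labelled as thymus-derived, each culture is 1 library, and no source used here gives doses or selection times.

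ABC proteins bind and hydrolyse ATP on a pair of nucleotide-binding domains, and most of them use that energy to move a substrate across a membrane. In cancer pharmacology the family is known for drug efflux, and the pump of the Abcb1 genes carries vincristine and etoposide out of cells. The remaining members are more varied. Members of the C and G branches export drugs, conjugates and organic anions, the A branch and part of the G branch move lipids, and B and D branch proteins serve mitochondria, lysosomes and peroxisomes. The E and F branches span no membrane and act on ribosomes. By role, 7 members fell to drug and organic anion efflux, 5 to lipid export, 5 to the mitochondrial and lysosomal B branch, 3 to the D branch and 4 to translation.

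Depth was 14066280 to 18955909 reads in the resistant libraries and 12142111 to 13498373 in the parental ones, so the ranges did not overlap, and its part in differences shared by all derivatives was not tested. All 7 T-lineage markers examined (Cd3d, Cd3e, Cd3g, Lck, Thy1, Lat and Zap70) were present, with a summed level of 2441 to 4374 CPM (reads scaled to a common library total) in resistant and 2733 to 3714 CPM in parental libraries. Of 4 B-cell, 4 erythroid and 4 thymic epithelial markers, 0 had a row in the table. Of 5 myeloid markers 1 had a row (Itgam, 2.74 to 22.7 CPM in resistant and 6.93 to 33.1 CPM in parental libraries), and of 5 stromal and endothelial markers 2 had rows (Pdgfrb and Pecam1, summed 28.5 to 591 CPM in resistant and 49.4 to 446 CPM in parental libraries). In bulk RNA, fewer expressing cells and less RNA per cell cannot be told apart. The part of such cell mixtures in the values below was not tested.

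Levels between genes are compared per kilobase of exon, as CPM per kilobase averaged over the 16 libraries. The translation ATPases led. Abcf2 stood at 96.0 and Abce1 at 59.3 CPM per kilobase, followed by Abcf1 at 47.0, and Abcf3 was lower at 13.3. The Abcf2 mean includes 506 CPM per kilobase in vincristine-resistant 2869, and its median was 72.4. Abce1 splits terminated and stalled ribosomes into subunits, and Abcf1 takes part in translation initiation. Among membrane proteins, the endolysosomal lipid transporter Abca2 was at 16.8 and the mitochondrial Abcb8 at 11.6 CPM per kilobase. Efflux genes were led by Abcc5 (8.76), Abcc4 (6.57) and Abcg3 (6.02), and the classical drug pumps were lower. Abcc1 (multidrug resistance protein MRP1) stood at 3.64, Abcg2 (breast cancer resistance protein) at 0.228 and Abcc2 (MRP2) at 0.183 CPM per kilobase. Abcg4 was also low, at 0.296. A few libraries set the means of Abcg2 and Abcc2, whose medians were 0.0115 and 0.0086 CPM per kilobase. Neighbours in this order overlap widely between libraries: for example, Abcb8 ranged from 7.17 to 46.5 and Abcc5 from 2.91 to 14.1 CPM per kilobase.

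**Figure D1:**
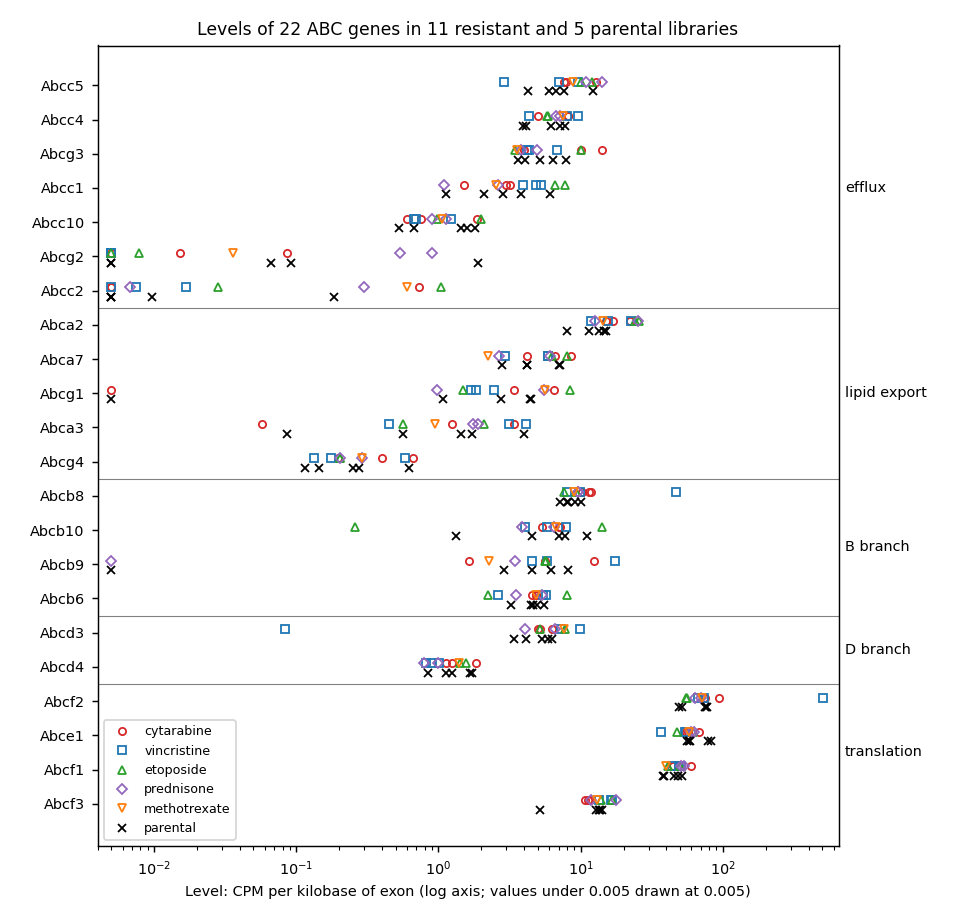
Level of 22 of the 24 members per kilobase of exon (log axis), 1 symbol per library: open coloured symbols for the 11 resistant libraries, black crosses for the 5 parental ones, grouped by role. Values under 0.005 are drawn at 0.005. The translation genes lie to the right, and Abcg1, Abcb9, Abcd3, Abcb10 and Abca3 each have libraries far below the rest. Abcg2 and Abcc2 are low in most libraries and reach 1 CPM in only 3 and 5 of them.

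Some members were at or near 0 in some libraries and well expressed in others. The 250 bases before the annotated start are shown for 3 of them and, for comparison, for Abce1, which was expressed in every library. Sequences are from RefSeq on GRCm38.p6, minus strand, 5′ to 3′. Of the 24 members, 17 matched an entry, with 23 windows. Capitals mark matches on either strand to the GC box (GGGCGG), the CCAAT box (CCAAT) or the core of the antioxidant response element (TGACNNNGC), motifs that do not overlap one another in these 4 windows. The windows are Abcd3 at chr3:121815303-121815552, Abcb10 at chr8:123983123-123983372, Abcb9 at chr5:124095799-124096048 and Abce1 at chr8:79711741-79711990.
Abcd3: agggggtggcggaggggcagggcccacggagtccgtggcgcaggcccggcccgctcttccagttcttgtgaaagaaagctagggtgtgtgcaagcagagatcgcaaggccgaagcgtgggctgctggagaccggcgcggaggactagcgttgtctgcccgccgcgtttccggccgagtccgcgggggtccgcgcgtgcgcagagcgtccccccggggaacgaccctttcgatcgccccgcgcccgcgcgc
Abcb10: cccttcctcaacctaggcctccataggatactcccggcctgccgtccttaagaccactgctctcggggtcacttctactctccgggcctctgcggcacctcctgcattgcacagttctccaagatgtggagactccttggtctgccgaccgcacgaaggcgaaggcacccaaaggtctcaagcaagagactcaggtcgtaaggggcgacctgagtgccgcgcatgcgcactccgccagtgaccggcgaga
Abcb9: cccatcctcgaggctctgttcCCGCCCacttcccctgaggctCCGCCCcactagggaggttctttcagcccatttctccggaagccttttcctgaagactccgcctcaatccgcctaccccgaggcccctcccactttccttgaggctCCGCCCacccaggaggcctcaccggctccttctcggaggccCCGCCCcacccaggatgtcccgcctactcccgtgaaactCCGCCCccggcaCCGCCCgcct
Abce1: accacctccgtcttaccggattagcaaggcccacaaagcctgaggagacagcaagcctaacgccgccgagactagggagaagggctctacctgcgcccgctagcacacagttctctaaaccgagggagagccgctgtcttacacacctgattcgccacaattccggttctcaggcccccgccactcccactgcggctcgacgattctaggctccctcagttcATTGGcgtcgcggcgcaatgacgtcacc
The Abcd3 window holds 34 CG dinucleotides and none of the 3 motifs, the Abcb10 window 17 and none, the Abcb9 window 17 with 6 GC boxes, and the Abce1 window 20 with 1 CCAAT box. The 23 member windows had a median of 17 CG dinucleotides, against 6 over all 32851 RefSeq windows of this length. GC boxes were found in 14 of 23 member windows and 32.7% of all windows, CCAAT boxes in 5 of 23 and 33.8%, and the antioxidant response element core in 4 of 23 and 10.2%. The 32851 windows were not limited to the genes tested here, and no set of similarly expressed genes was compared. These counts describe letters in the windows only.

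Each derivative was set beside its own parental library on log2(CPM + 1), a scale that understates changes of low genes. Over 24 members and 11 derivatives, 24 of 264 values were at least 2-fold higher and 9 were at least 2-fold lower in the derivative. Across all 13261 genes tested, 5.63% of such values were at least 2-fold higher and 5.42% at least 2-fold lower. The share of members was thus 9.09% higher and 3.41% lower, with no replicate of any pair and no test. Line 2883 held 18 of the 33 values, 16 of them higher, and without its 5 derivatives the counts were 8 higher and 7 lower of 144. Without the vincristine derivative of 2869 they were 20 higher and 8 lower of 240. The 5 derivatives of 2883 share 1 parental library, so their values are not independent. A low value in that library can give several higher values at once. Abcc1, for example, was at least 2-fold higher in 3 derivatives, all of line 2883. At least 1 such difference was seen in 18 of 24 members, against a background of 47.4% of all genes. Abcb6, Abcc4, Abcd4 and Abcf1 were among the members without any. Derivatives also differed in how many genes of all kinds passed 2-fold.

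In line 2883, 6 members were at least 2-fold higher in the cytarabine derivative (all genes 9.84%) and 0 lower (5.5%), and 4 were higher in the etoposide derivative (11%) and 0 lower (7.71%). The vincristine derivative of 2883 had 2 higher (6.96%) and 2 lower (6.82%), the prednisone derivative 2 higher (6.18%) and 0 lower (4.1%), and the methotrexate derivative 2 higher (5.15%) and 0 lower (5.69%). In line 2869 the vincristine derivative had 4 higher (6.26%) and 1 lower (4.55%), and the cytarabine derivative 2 higher (6.21%) and 0 lower (2.9%). These 7 derivatives held 22 of the 24 higher values. In line 2696 the vincristine derivative had 1 higher (3.6%) and 2 lower (8.69%), and the etoposide derivative 0 higher (2.78%) and 2 lower (4.07%). Cytarabine-resistant 7298 had 1 higher (1.36%) and 1 lower (3.72%), and prednisone-resistant 2641 had 0 higher (2.57%) and 1 lower (5.87%). The 6 members higher in the cytarabine derivative of 2883 were Abcg3, Abca7, Abcc2, Abcg4, Abcc10 and Abca3.

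**Figure D2:**
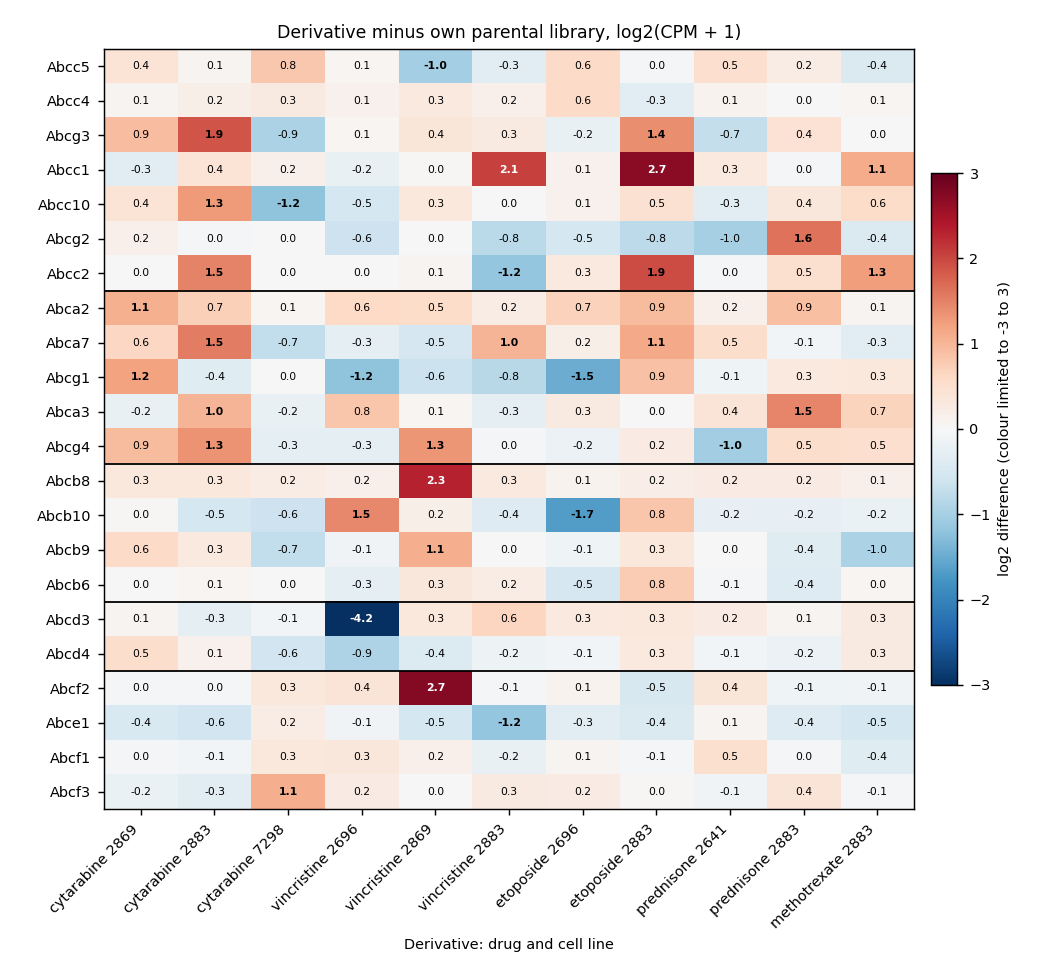
Difference in log2(CPM + 1) of 22 members between a derivative (columns: drug and cell line) and its own parental library, by role from top to bottom: efflux, lipid export, B branch, D branch, translation. Bold numbers reach 1 in size. Most cells are pale, and the deepest colours are Abcd3 in vincristine-resistant 2696 (-4.19), Abcf2 in vincristine-resistant 2869 (2.75) and Abcc1 in etoposide-resistant 2883 (2.71).

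Among the efflux genes, the differences sat largely in line 2883. Abcc1, whose product exports glutathione conjugates and several natural product drugs including vincristine and etoposide, lies on chromosome 16 (14361558 to 14475737, plus strand, mm10). In line 2883 it had 1661 reads in the etoposide-, 1075 in the vincristine-, 535 in the methotrexate-, 394 in the cytarabine- and 282 in the prednisone-resistant derivative, against 206 reads in the parental library. Scaled to depth, this is 116, 73.6, 38.0, 22.9 and 16.4 CPM in the 5 derivatives and 17.0 CPM in the parental library. The etoposide derivative was thus 6.87-fold above its parent (95% exact binomial interval 5.94 to 7.97), the vincristine derivative 4.34-fold (3.74 to 5.06) and the methotrexate derivative 2.24-fold (1.91 to 2.65), while the prednisone derivative stood at 0.967 of it (0.805 to 1.16). In line 2696 Abcc1 stood at 100 CPM in the etoposide- and 78.9 CPM in the vincristine-resistant derivative, against 91.8 CPM in the parental library. Parental 2883 thus lay far below parental 2696, and in line 2883 only the etoposide derivative exceeded the libraries of line 2696. In line 2869 the level was 45.4 CPM in the cytarabine- and 59.5 CPM in the vincristine-resistant derivative, against 57.6 CPM in the parental library. The 11 genes within 1 Mb of Abcc1 had median log2 differences of 0.00 in etoposide- and 0.17 in vincristine-resistant 2883, so the difference was not shared by its neighbourhood.

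Abcc2, an organic anion exporter best known from the liver (chromosome 19, 43782192 to 43840740), was detected mainly in line 2883. Its reads there were 127 in the etoposide-, 107 in the cytarabine-, 72 in the methotrexate-, 44 in the prednisone- and 2 in the vincristine-resistant derivative, against 19 in the parental library. In the 10 other libraries it had 0 to 4 reads. The etoposide derivative of 2883 was 5.69-fold above its parent (3.5 to 9.76) and the vincristine derivative at 0.0875 of it (0.00989 to 0.363), so Abcc1 and Abcc2 lay on opposite sides of the parent in the vincristine derivative and on the same side in the etoposide derivative. Abcg2, an efflux pump of the G branch known for exporting methotrexate and topoisomerase poisons (chromosome 6, 58584523 to 58695676), was highest in line 2641. It had 138 reads in the prednisone-resistant derivative and 206 reads in the parental library there. In line 2883 it had 75 reads in the prednisone derivative against 9 in the parental library, a 5.88-fold difference (2.94 to 13.4), and 12, 4, 0 and 0 reads in the cytarabine, methotrexate, etoposide and vincristine derivatives. The prednisone derivatives of 2641 and 2883 thus lay on opposite sides of their parents, with 0.470 of the parental level (0.376 to 0.586) in 2641.

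The most abundant efflux genes per kilobase were Abcc5, Abcc4 and Abcg3. Abcc5, an exporter of cyclic nucleotides and nucleotide analogues (chromosome 16, 20331303 to 20426394), had 137, 84.1 and 81.5 CPM in cytarabine-resistant 2883, 2869 and 7298, against 130, 63.5 and 45.8 CPM in the parental libraries of these lines. In vincristine-resistant 2883, 2869 and 2696 it had 102, 31.0 and 74.7 CPM, against 130, 63.5 and 71.3 CPM in their parental libraries. It was therefore above its parent in 3 of 3 cytarabine derivatives, though by little in 2883 (137 against 130 CPM). In 7298 many genes near Abcc5 were also higher, as described below for Abcf3. Abcc5 was below its parent in the vincristine derivatives of the 2 lines that also have a cytarabine derivative. Abcc4, which exports cyclic nucleotides and antimetabolites such as methotrexate, stayed within 2-fold throughout, including 47.9 CPM in the methotrexate-resistant derivative against 45.8 CPM in parental 2883. Abcg3, a rodent relative of Abcg2, had 860 reads in cytarabine- and 506 in etoposide-resistant 2883, against 155 in the parental library. In line 7298 it lay the other way, with 250 reads in the cytarabine derivative and 354 in the parental library at lower depth, 0.504 of the parental level. Abcc10, an MRP-type exporter, also differed in sign between cytarabine derivatives, with 12.7 CPM in resistant against 4.62 CPM in parental 2883, and 4.14 CPM in resistant against 10.9 CPM in parental 7298.

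For reference, the excluded Abcb1a had 53577 and 76461 reads in etoposide- and vincristine-resistant 2883, against 0 in the parental library. It had 67244 reads in vincristine-resistant 2869, against 213 in its parental library.

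**Figure D3:**
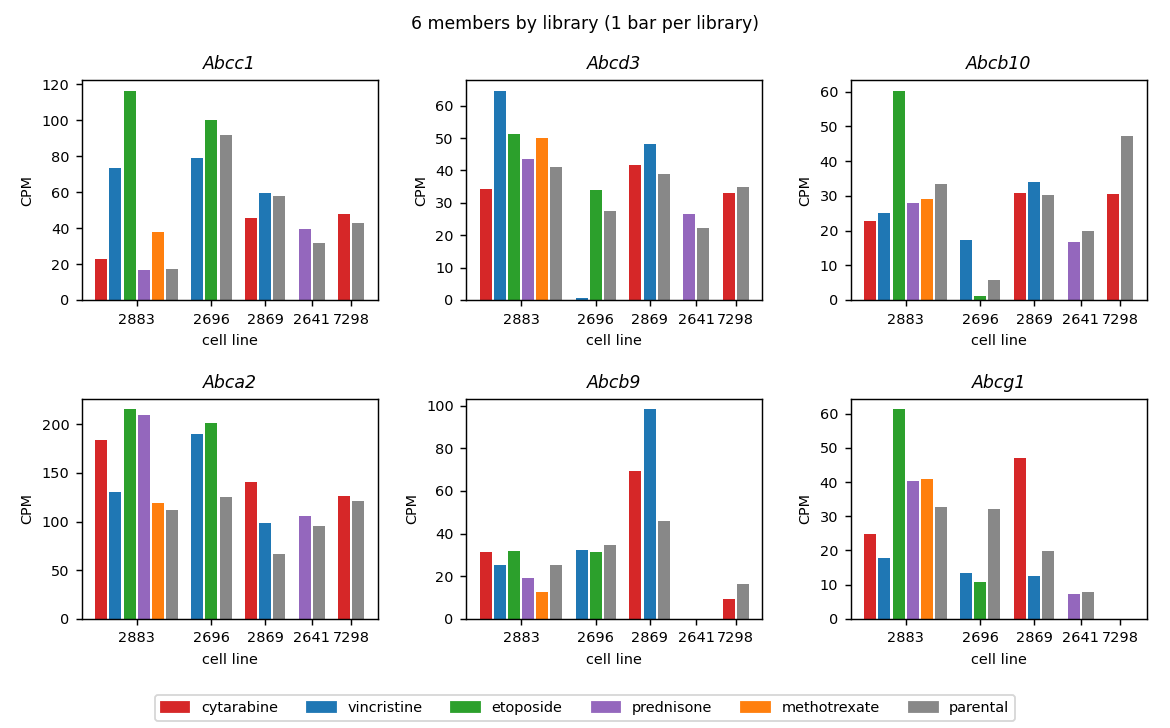
CPM of 6 members in every library, 1 bar per library, grouped by cell line with the resistant derivatives (coloured by drug) left of the parental library (grey). Abcc1 differs within line 2883, Abcd3 is nearly absent from vincristine-resistant 2696, Abcb9 is missing in line 2641 and Abcg1 in line 7298.

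Among the lipid exporters, Abca2 was above its parental library in every derivative. Its product resides in endosomes and lysosomes and takes part in sphingolipid and cholesterol handling (chromosome 2, 25428703 to 25448540). The level ran from 98.6 to 215 CPM with a median of 141 in the resistant libraries, against 67.1, 95.1, 112, 121 and 125 CPM in the parental libraries of 2869, 2641, 2883, 7298 and 2696. The groups overlap, yet each derivative was above its own parental library in 11 of 11 pairs, by 0.06 to 1.06 on the log2 scale. The 11 pairs share 5 parental libraries, so they are not independent. Among all genes, 0.686% were above the parental library in every derivative. Abcb8 was the other member with this pattern. In the model with 1 term for resistance the log2 fold change of Abca2 was 0.49 ± 0.17 (SE, 11 derivatives), which did not pass the threshold (limma adjusted p = 0.543).

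Abcg1, which exports cholesterol to high-density lipoprotein particles (chromosome 17, 31057675 to 31117988), lay above the parental library in some derivatives and below it in others. In line 2696 it had 10.8 CPM in the etoposide and 13.3 CPM in the vincristine derivative, against 32.0 CPM in the parental library. In line 2869 the cytarabine derivative had 47.1 CPM and the vincristine derivative 12.4 CPM, against 19.9 CPM in the parental library. In line 2883 the etoposide, methotrexate and prednisone derivatives had 61.3, 40.9 and 40.2 CPM and the cytarabine and vincristine derivatives 24.96 and 17.9 CPM, against 32.6 CPM in the parental library. All 3 vincristine derivatives were thus below their parental libraries. Both libraries of line 7298 had 0 reads, a count that allows up to 0.17 CPM in the cytarabine derivative and 0.238 CPM in the parental library. Abca3, the phospholipid transporter of lung surfactant, had 16.4 CPM in the prednisone and 11.7 CPM in the cytarabine derivative of 2883, against 5.27 CPM in the parental library. Abca7, a phospholipid transporter linked to phagocytosis, had 57.4, 42.7 and 39.7 CPM in the cytarabine, etoposide and vincristine derivatives of 2883, against 19.0 CPM in the parental library. Abcg4, a sterol transporter close to Abcg1, had 8 to 59 reads in all libraries, and its 2-fold differences rest on these few reads.

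The liver X receptors switch on sterol exporters including Abcg1, and 10 of 12 genes of a list of these receptors and their targets were tested. None passed the threshold for any drug or for all derivatives together. At an unadjusted p under 0.05, 2 of the 10 were higher with cytarabine (9.42% of all genes had such a p in either direction), 2 higher with etoposide (8.68%) and 2 lower with vincristine (13%). Apoe, the carrier of exported cholesterol, was at 1.68 ± 0.38 (SE, 2 derivatives, limma adjusted p = 0.557) for etoposide, and the desaturase Scd1 at -3.60 ± 1.05 (3 derivatives, limma adjusted p = 0.255) for vincristine. Of 14 tested genes of the Nrf2 and glutathione list, which covers regulators and substrates of MRP-type export, 0 passed for any drug. For vincristine 1 was higher and 2 were lower at an unadjusted p under 0.05, against 13% of all genes in either direction. Among them, the quinone reductase Nqo1 was at -1.75 ± 0.72 (limma adjusted p = 0.357) and Gclc, the rate-limiting enzyme of glutathione synthesis, at 0.46 ± 0.20 (limma adjusted p = 0.376).

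In the B branch, single libraries stood out. Abcb10, a transporter of the inner mitochondrial membrane needed for haem synthesis in red cell precursors (chromosome 8, 123952459 to 123983122), had 19 reads in the etoposide and 288 in the vincristine derivative of line 2696, against 75 in the parental library. The etoposide derivative was at 0.194 of its parent (95% interval 0.110 to 0.324) and the vincristine derivative 3.04-fold above it (2.35 to 3.97), so derivatives of 1 line differed in opposite directions. The other 13 libraries held 16.6 to 60.3 CPM, and parental 2696 had 5.72 CPM. The 33 genes within 1 Mb of Abcb10 had median differences of 0.11 and 0.10 on the log2 scale in these derivatives. Of its exon bases, 10.3% lie opposite exons of the gene Gm45890, and it is not stated whether strand was used in counting.

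Abcb9, a lysosomal peptide transporter related to the antigen peptide transporter (chromosome 5, 124061530 to 124095798), had 0 reads in the prednisone-resistant and the parental library of 2641, which allows up to 0.158 and 0.226 CPM. All other libraries held between 9.17 and 98.2 CPM. The highest was vincristine-resistant 2869 with 98.2 CPM against 45.9 CPM in its parental library, a 2.14-fold difference (1.95 to 2.35), with a median of -0.01 among its 37 neighbours. The iron-sulfur and haem list had 0 of 14 tested genes past the threshold. With an unadjusted p under 0.05, Fech, which inserts iron into haem, was at -0.73 ± 0.21 for cytarabine (limma adjusted p = 0.494) and Cpox, an earlier enzyme of the same pathway, at 0.87 ± 0.22 for prednisone (limma adjusted p = 0.499).

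In the D branch, Abcd3 had the largest difference of any member on the log2 scale. Abcd3 (PMP70) imports branched-chain acyl-CoA and bile acid intermediates into peroxisomes and lies on chromosome 3 (121758774 to 121815302). It had 9 reads in vincristine-resistant 2696, against 359 reads in the parental library, a ratio of 0.0198 (0.00900 to 0.0381), or 50.4-fold lower. The etoposide derivative of the same line had 582 reads, and the other 13 libraries held 22.4 to 64.7 CPM, including 64.7 and 48.3 CPM in the vincristine derivatives of 2883 and 2869. The near absence was therefore confined to 1 of the 16 libraries. Among its 9 neighbours within 1 Mb the median difference was -0.05 and 1 was at least 2-fold lower. Abcd4, which serves lysosomal release of vitamin B12, had 6.58 CPM in vincristine-resistant against 13.4 CPM in parental 2696, a log2 difference of -0.93. In the peroxisome list 0 of 12 tested genes passed the threshold.

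Among the translation ATPases, Abcf2 had the largest positive log2(CPM + 1) difference of any member, and Abcb8 of the B branch was higher in the same library. Abcf2 is a soluble F branch protein, and Abcb8 is a mitochondrial transporter that acts in potassium and iron handling. Both lie on chromosome 5, Abcf2 at 24565345 to 24577467 and Abcb8 at 24393663 to 24410054. In vincristine-resistant 2869 Abcf2 had 22365 reads against 2602 in the parental library, a 6.74-fold difference (6.48 to 7.03), and Abcb8 had 3789 reads against 585, a 5.08-fold difference (4.66 to 5.55). Abcf2 was at 127 to 242 CPM in the other 15 libraries, where Abcb8 was at 34.0 to 56.4 CPM. In this library the summed level of all 24 members was 2847 CPM, where the other 15 libraries lay between 1358 and 1852 CPM.

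The genes around them were higher in the same library. Of 21 protein-coding genes within 1 Mb of Abcf2, 18 were at least 2-fold higher in vincristine-resistant 2869 than in parental 2869, with a median log2 difference of 2.19. Against the median of the parental libraries of the other lines, the same neighbours had a median of 2.19 in this derivative. In the remaining 15 libraries their median was between -0.28 and 0.34. At 10 to 24 Mb on the side toward the chromosome start, where the Abcb1 genes lie, 23 of 26 genes were at least 2-fold higher (median 2.43). At 3 to 10 Mb on the other side 55 of 68 were (median 1.80), and at 10 to 24 Mb 26 of 50 (median 1.28). That last bin held 2 unlike parts. Its 2-fold higher genes lay between 10 Mb and Wdr1 at 13.96 Mb (2.23). From the next gene, Rab28 at 17.06 Mb, the log2 differences ran only from -0.46 to 0.81. On the whole of chromosome 5, 172 of 718 genes were at least 2-fold higher and the median difference was 0.36. Abcb9 and Abcg3 are on the same chromosome but outside these windows.

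**Figure D4:**
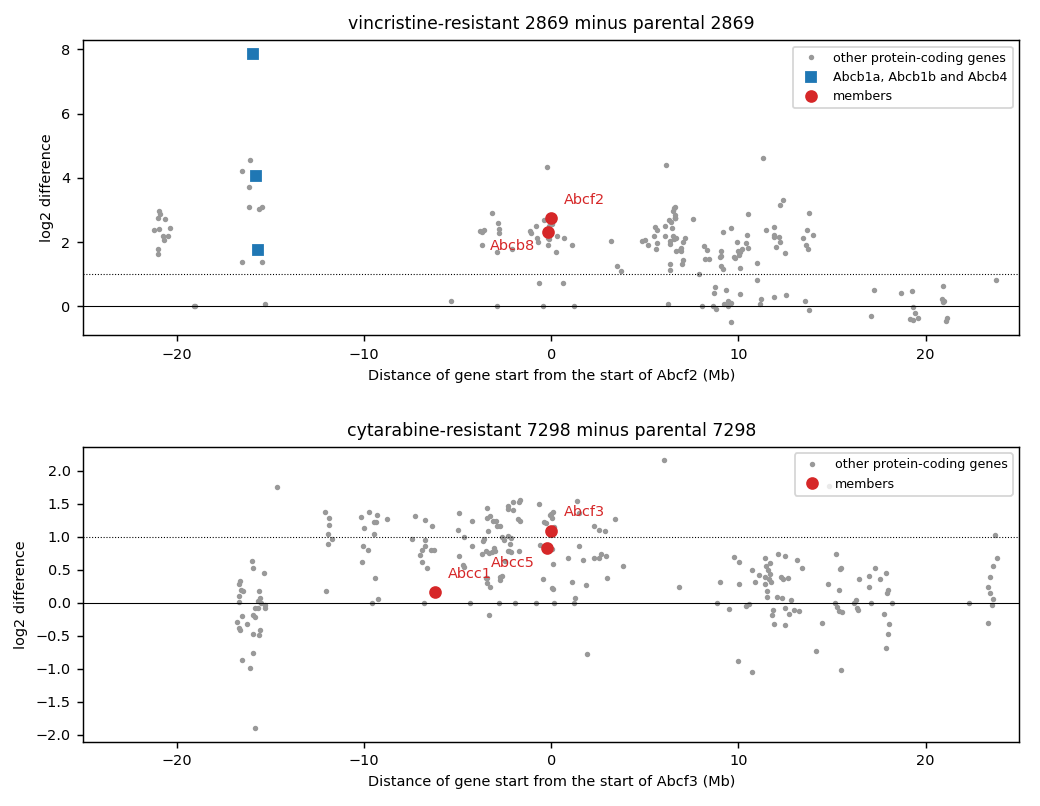
Log2(CPM + 1) difference of each protein-coding gene against the distance of its start from that of Abcf2 (top, vincristine-resistant minus parental 2869) or Abcf3 (bottom, cytarabine-resistant minus parental 7298). Red points are members, blue squares the Abcb1 genes and Abcb4, grey points all other genes, and the dotted line marks a 2-fold difference. Abcf2 and Abcb8 lie within a broad band of higher genes, and Abcf3 and Abcc5 within a shallower one.

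A smaller case was seen for Abcf3, a protein related to a yeast activator of the amino acid starvation response, on chromosome 16 (20548577 to 20561379). It had 40.3 CPM in cytarabine-resistant 7298 against 18.4 CPM in parental 7298, a 2.19-fold difference (1.89 to 2.55). Of 21 neighbours within 1 Mb, 11 were at least 2-fold higher and the median was 1.02. Abcc5, which lies 0.22 Mb away, was 1.78-fold higher (1.62 to 1.96). For Abcf3 itself, the parental library was the one that stood apart. Against the median of the parental libraries of the other lines, Abcf3 was at -1.34 in parental and -0.25 in cytarabine-resistant 7298. In the libraries of the other lines it was at -0.28 to 0.41. Its neighbours were at -0.59 and 0.15 in line 7298 and at -0.06 to 0.61 in the other lines. For the neighbours, shifts of similar size but upward were thus seen elsewhere. Abce1 was lowest in vincristine-resistant 2883, with 3232 reads against 6040 in the parental library, 0.445 of the parental level (0.426 to 0.465). There, 3 of its 6 neighbours were at least 2-fold lower, with a median of -0.91. Across chromosome 8, where Abce1 lies, 129 of 613 genes were at least 2-fold lower and 9 higher in this derivative (median -0.68). Abcf1 stayed between 168 and 265 CPM. In all, the median of the neighbours passed 2-fold in the same direction as the member in 3 of the 33 cases, those of Abcf2, Abcb8 and Abcf3, and lay within 0.5 of no difference in 25 of 33. The ribosome rescue and translation list had 0 of 12 tested genes past the threshold. Pelo, which opens stalled ribosomes for Abce1, was at 0.82 ± 0.23 (limma adjusted p = 0.240) and Nemf, a factor of the same quality control, at -0.53 ± 0.13 (limma adjusted p = 0.221) for vincristine.

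The replicated comparisons asked whether any member differed with a drug across lines. The model held 1 term per line and 1 per drug, was fitted with limma to all genes in 16 libraries, and had 6 residual degrees of freedom. Of the 24 members, 0 passed the adjusted threshold of 0.05 for cytarabine (n = 3 derivatives), vincristine (3), etoposide (2) or prednisone (2), and so did 0% of all genes in each. For cytarabine 2 members had an unadjusted p under 0.05, against 9.42% of all genes. They were Abca2 at 0.57 ± 0.21 (limma adjusted p = 0.5) and Abcc5 at 0.53 ± 0.21 (0.509). Over the alternatives and with single libraries left out, Abca2 ran from 0.39 to 0.79 and Abcc5 from 0.22 to 0.76. For vincristine 3 members had an unadjusted p under 0.05, against 13% of all genes: Abcf2 at 1.08 ± 0.46 (0.368), Abcb8 at 0.92 ± 0.36 (0.346) and Abce1 at -0.51 ± 0.21 (0.354). The first 2 rest on line 2869, since without that vincristine derivative they were 0.20 and 0.22, and Abce1 was at -0.25 without the vincristine derivative of 2883. For etoposide 2 members had an unadjusted p under 0.05, against 8.68%, Abcc1 at 1.48 ± 0.52 and Abca2 at 0.70 ± 0.24 (both limma adjusted p = 0.557). Abcc1 was at 0.61 without the etoposide derivative of 2883. For prednisone 2 had an unadjusted p under 0.05, against 8.46%, Abca3 at 0.95 ± 0.42 (limma adjusted p = 0.588) and Abca2 at 0.57 ± 0.25 (0.575). Without the prednisone derivative of 2883, Abca3 was at 0.38 and Abca2 at 0.15. With 1 term for resistance in place of the drugs, 2 members had an unadjusted p under 0.05, against 8.33% of all genes, Abca2 with the value given above among them, and 0 passed the threshold, as did 0% of all genes.

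**Figure D5:**
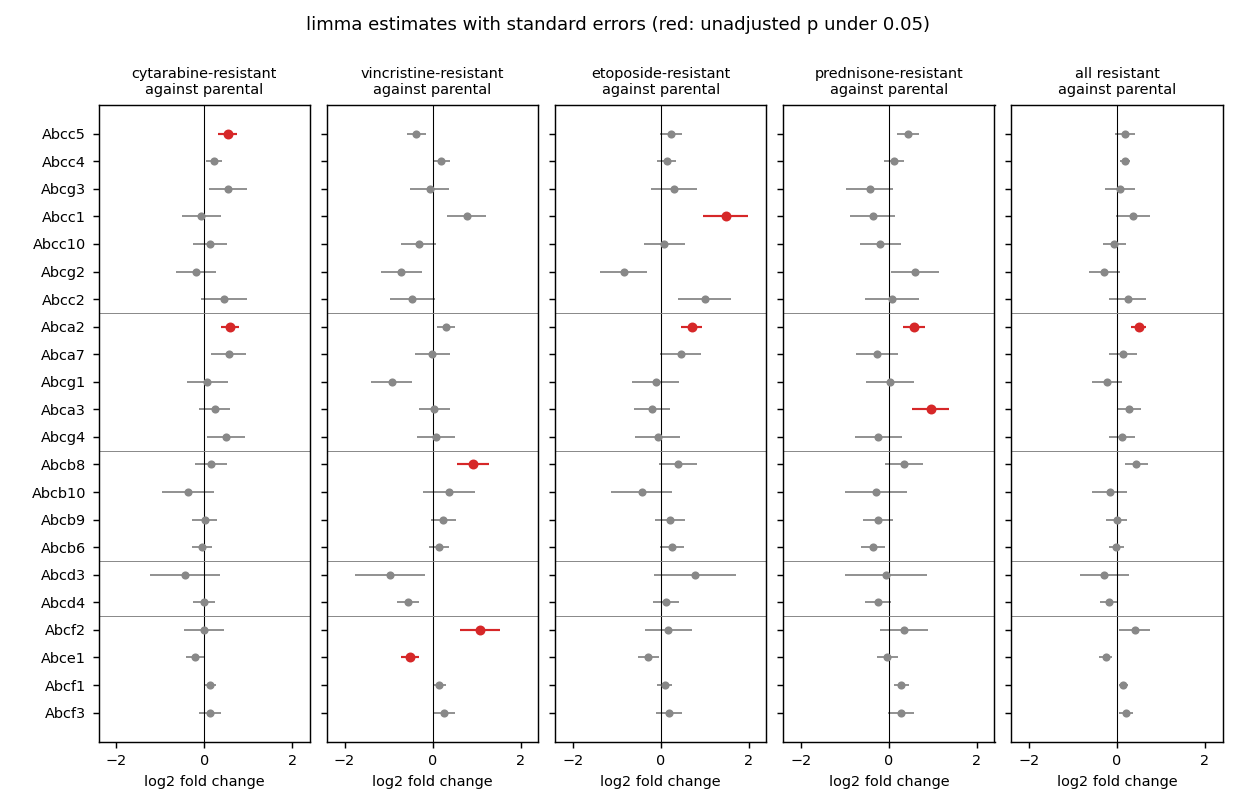
Log2 fold changes of 22 members on log2(CPM + 1) from limma, with standard errors, for 4 drugs and for all derivatives together against the parental libraries. Red marks an unadjusted p under 0.05, and 0 members passed after adjustment over all genes. Abcc1 for etoposide (1.48) and Abcf2 for vincristine (1.08) are the red points farthest from 0.

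Differences between drugs were tested in the same model. For vincristine minus cytarabine 0 members passed the threshold, as did 0% of all genes, and 1 had an unadjusted p under 0.05 against 10.2% of all genes. This was Abcc5 at -0.90 ± 0.24 (SE, 3 derivatives each, limma adjusted p = 0.467), and at -0.54 without the vincristine derivative of 2869. The other 5 contrasts between drugs, added after the data were seen, also called 0 members, where 0.00754% of all genes were called for vincristine minus etoposide and 0% in the other 4. At an unadjusted p under 0.05 they held 1 member for cytarabine minus etoposide (7.46% of all genes), 0 for cytarabine minus prednisone (6.3%), 2 for vincristine minus etoposide (9.28%), 1 for vincristine minus prednisone (9.41%) and 1 for etoposide minus prednisone (9.08%). These were Abcc1, Abcc5 and Abcc2. Abcc1 was at 1.85 ± 0.64 for etoposide minus prednisone (limma adjusted p = 0.512) and at -1.55 ± 0.59 for cytarabine minus etoposide (0.650).

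Levels were also compared between cell lines. The F test of the line terms called 7 of 24 members, near the background of 26.3% of all genes. They were Abcb9, Abca3, Abcg1, Abcc5, Abcg2, Abcc4 and Abcb6, and the distance between the highest and the lowest line was 5.89, 4.5, 5.28, 1.16, 3.15, 0.84 and 1.29 on the log2 scale in that order. The limma adjusted p was 7.69e-05 for Abcb9, 0.000599 for Abca3, 0.000916 for Abcg1 and between 0.02 and 0.0447 for the other 4. Without parental 7298 the count was 3, and under the alternatives and with single libraries left out Abcb6 was not called in 15 of 21 fits, Abcc4 in 14 of 20 and Abcg2 in 11 of 20. The lines differed in which member was missing: Abcb9 in 2641, Abcg1 in 7298 and, nearly so, Abca3 in 7298, with 0.536 CPM in the cytarabine derivative and 0.801 CPM in the parental library against 4.23 to 38.9 CPM elsewhere. Line 2641 was the only line with Abcg2 above 1 CPM in its parental library, and the prednisone derivative of 2883 was the only library outside it with more than 1 CPM. Abcb6, a porphyrin transporter of the outer mitochondrial membrane and lysosome, was lowest in line 2696, but 55.2% of its exon bases are shared with the same-strand gene Gm29253, so its counts are uncertain. Among the other members with a marked spread, Abcb10 (adjusted p = 0.0575) and Abcc2 (0.0576) did not pass.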

How the data were processed

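RNA of 16 cultures was sequenced, 11 from resistant derivatives and 5 from parental lines; p-values measure the spread between these cultures only. Per the labels' protocols, total RNA went through a stranded mRNA library kit. Per the submitters' processing notes, the tools were cutadapt, STAR and Partek and the build was mm10, without versions. For the annotation and counting settings: not given in the sources used here. The authors deposited FPKM values, in which gene length is the whole span with introns in all 13474 rows. CPM was computed as FPKM times length in kilobases, and reads from the depth implied by a constant 0.1 read per gene. Of member values, 336 of 384 lay within 0.05 of a whole read, and 19 of 24 members were whole in all libraries; over all genes 70.5% to 75.7% of values between 0.5 and 200 reads were, too few for a count test.

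CPM was used because 11 of 24 members fail a filter of 1 FPKM in 2 libraries, while all 24 pass 1 CPM in 2 libraries, as do 13261 genes. limma 3.58.1 in R 4.3.3 (trended eBayes, two-sided, Benjamini-Hochberg) was run on log2(CPM + 1) with line and drug terms (6 residual degrees of freedom) or line and resistance (10). The cell line served as block, since the labels give a derivative and its parent the same line number. By correlation of log2 values, the own parental library ranked first in 11 of 11 derivatives (r 0.914 to 0.980). With each gene's mean over all libraries subtracted, r with the own parental library was only 0.151 to 0.837. It was lowest in etoposide- (0.151), cytarabine- (0.165) and vincristine-resistant 2883 (0.305). All labels give 1 batch date. Ratios carry 95% Clopper-Pearson intervals on reads, which cover counting error only; 0 reads allow up to 3 reads. The script was tested on simulated data. All members have the same span in GENCODE vM21. Values of 2 members and of 1 pathway gene are not reported here, and these members are not drawn, though counts over the 24 members include them.

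Members and lists were chosen with earlier results of these data known. Named are members past the threshold or, failing that, those of smallest p, members at least 2-fold different in any pair, the 3 highest per role, and up to 3 genes per pathway list. Windows of 1 Mb around members and the distance bins were chosen after values were seen. Alternatives were no line block, a pseudocount of 0.25, log2(FPKM + 1), no filter, median-of-ratios scaling, each library left out, Mcm2cre/cre lines only and a 3-fold threshold.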

Additional observations from a re-analysis of the deposited data

Results flagged for a closer look

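In the 5 parental libraries, 24 members were examined for a library standing apart by Dixon's gap test, and 3 were marked; chance marks about 1 in 20 groups. Abcg2 had 15.5 CPM in parental 2641, where the other parental libraries had 0.00740 to 0.749 CPM. Abcf3 had 18.4 CPM in parental 7298, where the others had 45.5 to 50 CPM. Abcc2 had 1.57 CPM in parental 2883, where the others had 0.00741 to 0.0828 CPM. For Abcg2 and Abcf3 the derivative of the same line lay nearer to the other lines, at 7.29 CPM in prednisone-resistant 2641 and 40.3 CPM in cytarabine-resistant 7298. For Abcc2, 4 of the 5 derivatives of 2883 were above their parental library.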

How the results depend on the processing

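In every drug comparison and for all derivatives together, 0 members were called under each alternative and without each library in turn. Between lines, 7 members were called. Log2(FPKM + 1), which tests 13 members, and the Mcm2cre/cre lines alone each called 3. Leaving out single libraries gave 3 to 7, with 3 without parental 7298 and 4 without parental 2883, 2641 or 2869 or cytarabine-resistant 2883 or 2869. Abcb9 and Abca3 were called in every alternative that tested them, while Abcb6 was lost in 15 of 21, Abcc4 in 14 of 20, Abcg2 in 11 of 20, Abcc5 in 2 of 21 and Abcg1 in 1 of 20. Without the line block that pairs derivative and parent, Abcg1 turned to 0.41 for vincristine (-0.93 with it) and to 0.51 for vincristine minus cytarabine (-1.0 with it). For vincristine minus cytarabine, Abcb8 was at 0.76, and leaving out single libraries gave -0.057 (without vincristine-resistant 2869) to 1.12. Without the block 0 members were called, as with it, but over all genes the calls for vincristine became 4 (0 with it), and members at an unadjusted p under 0.05 became 0 for cytarabine, 1 for vincristine and 0 for prednisone (2, 3 and 2 with it). Of values named for single members, 747 kept their side of the threshold, 43 lost the threshold, all between lines, and 3 reversed direction. The 747 also kept direction, except between lines, where the F test has none. In the drug and all-derivative comparisons, the side kept was that of members not called. The pair counts of 24 higher and 9 lower became 7 and 2 at 3-fold, and 15 lower at a pseudocount of 0.25. Chosen after seeing the data, leaving out the derivatives of 2883 gave 8 higher. Causes were not tested beyond the fewer samples or members each alternative holds. With 1 library per culture, 2-fold differences have no replicate check. Depth limits Abcc2, Abcg2 and Abcg4.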
